A study of Artemia parthenogenetic lineage with 3 samples.

Results

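Downstream peaks are the accessible regions that lay 1 to 3000 bp past the start of their assigned gene, in the direction of transcription, without touching the start itself. They were chosen by the distance given in the table of merged peaks alone, without direct use of their signal. That distance depends on peak width, because a wider peak close to a start more easily touches it and is then left out. Width went with signal, as given below, so the choice was not fully independent of signal. The table held 3002 such peaks among 108316, which is 2.77% (95% exact binomial interval 2.67 to 2.87). They were assigned to 2550 of the 12002 listed genes (21.2%, 20.5 to 22.0) on 1195 contigs. Of these genes, 652 also had a peak overlapping the start, called a start peak here, and they carried 768 of the downstream peaks (25.6%, 24.0 to 27.2). The other 2234 downstream peaks belonged to 1898 genes with no start peak.

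The peaks were measured by ATAC-seq in whole cysts of wild-type parthenogenetic *Artemia* from Ebinur Lake, 30 min after embryonic diapause termination (EDT). All 3 libraries were samples of the ArR_30min group, whose diapause had been broken by drying and cold storage before rehydration in ice-cold artificial seawater and transfer to warm, constantly lit seawater. The study describes them as biological replicates, but its cysts came from a single batch. A whole cyst mixes all cells of the embryo, and with 1 group the levels below describe that time point without a contrast between conditions.

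ATAC-seq uses the Tn5 transposase to cut and tag DNA that nucleosomes do not cover, so read density follows chromatin openness. In animal genomes the start of an active gene is usually kept open so that transcription factors and RNA polymerase can bind, and the first nucleosome past the start is often firmly placed. Beyond it, the early part of a gene, often the first intron, can hold enhancers and alternative starts, which appear as separate accessible sites. The gene models used here may lack untranslated regions, so a listed start may lie away from the true start of transcription. No exons or introns were annotated in the table, and peaks were placed only relative to gene ends. Signals are given as RPM, reads scaled to a common library total, where the authors added 1 read to each count.

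Downstream peaks were ordinary in strength for this genome and far weaker than start peaks. The median signal of the 3002 downstream peaks was 0.773, 0.721 and 0.764 RPM in replicates 1, 2 and 3 (mean 0.753 ± 0.028, SD, n = 3). Over all peaks the medians were 0.698, 0.668 and 0.716 RPM. Start peaks, of which there were 3126, had medians of 2.24, 1.58 and 1.74 RPM, and the lowest start median lay above the highest downstream median, although single peaks of the sets overlapped. On the scale of log2(RPM + 0.0691), the median of downstream peaks was 1.46, 1.06 and 1.11 below that of start peaks, a mean difference of -1.21 ± 0.21 (exact permutation test that flips signs over the 3 replicates, two-sided, p = 0.25, adjusted p = 0.333). The value 0.25 is the smallest p that 3 replicates allow, and so no comparison here could reach 0.05. The family held 12 comparisons, 5 of them added after the data had been seen, with Benjamini-Hochberg adjustment over all 12.

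Much of the gap to start peaks went with peak width. Downstream peaks had a median width of 313 bp and start peaks one of 639 bp, beside 317 bp over all peaks. A wide peak overlaps a given point more easily than a narrow one, so the definition of start peaks itself favours wide peaks. How much of the gap follows from this definition was not tested. Several summits were listed in 43.4% of downstream peaks and in 88.8% of start peaks, beside 45.1% of all peaks. Per kb of peak width, downstream peaks had 2.37 ± 0.111 RPM and start peaks 2.96 ± 0.553 RPM, and the log2 difference shrank to -0.28 ± 0.20 (exact permutation test, p = 0.25, n = 3). Among peaks of 200 to 500 bp width, 2434 downstream and 1021 start peaks, the difference was -0.57 ± 0.19, so part of it remained at like widths. Downstream peaks with 1 summit had a median of 0.575 RPM and those with several had 1.21 RPM. Across the 3002 downstream peaks the Spearman correlation between width and signal was 0.754, where both measures rest on the same reads.

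Compared with the mirror window, downstream peaks differed little. The upstream flank, 1 to 3000 bp before the start, held 2883 peaks with medians of 0.754, 0.703 and 0.752 RPM. The log2 difference in favour of downstream peaks was 0.03, 0.03 and 0.02 in the 3 replicates, with a mean of 0.03 ± 0.007 (exact permutation test, p = 0.25, adjusted p = 0.333). The next window inward, beyond 3000 and up to 20000 bp past the start and inside the gene, held 10917 peaks with medians of 0.717, 0.686 and 0.728 RPM. Downstream peaks lay above these by 0.10, 0.07 and 0.06 on the log2 scale, a mean of 0.08 ± 0.02 (exact permutation test, p = 0.25, adjusted p = 0.333). Both differences had the same sign in 3 of 3 replicates and both were small, at 1.02-fold and 1.05-fold. Among peaks above background in all 3 replicates, the difference from the upstream flank was 0 in replicates 1 and 2 and 0.02 in replicate 3. No step was seen at the outer edge of the window, where the median was 0.734 ± 0.042 RPM in the last 500 bp of the window and 0.734 ± 0.031 RPM in the 500 bp beyond it. At the inner edge, peaks within 50 bp of the start had 0.801 ± 0.123 RPM.

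Most downstream peaks stood above the read density outside peaks, which restates in part how peaks are called. In all 3 replicates, 2827 of 3002 (94.2%, 93.27 to 94.98) exceeded the 95% Poisson limit of that density, and the background for this call was 90.3% of all 108316 peaks. The share was 97.9% for downstream peaks of genes with a start peak and 92.9% for those of genes without one. No replicate passed at 5 downstream peaks (0.17%), beside 0.31% of all peaks and 1 of 2883 upstream flank peaks. A mean of at least 2 RPM was reached by 283 downstream peaks (9.43%), by 45.6% of start peaks and by 10.3% of all peaks. A mean of 10 RPM was reached by 9 downstream peaks (0.30%), beside 0.37% of all peaks. Binomial intervals cover counting error only, because reads amplified by PCR without molecular identifiers are not independent molecules.

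Accessible sites crowded toward the start in number but not in strength. The first 250 bp past the start held 440 downstream peaks, the next 250 bp held 359, and the last 250 bp of the window held 202. Within 200 bp of the start there were 362 downstream and 284 upstream peaks. The upstream ones had the higher medians here, with 0.962, 0.791 and 0.831 RPM against 0.858, 0.721 and 0.764 RPM, a difference that was not tested. The window was cut into 5 bands with edges at 200, 500, 1000 and 2000 bp. From the nearest to the farthest band the median signal was 0.781, 0.776, 0.728, 0.756 and 0.746 RPM, without a trend. The Spearman correlation between distance and signal across the 3002 peaks was -0.0053. The band nearest the start lay above the farthest one by 0.17 on the log2 scale in replicate 1 and by 0 in replicates 2 and 3 (mean 0.06 ± 0.10, exact permutation test, p = 1, n = 3).

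**Figure D1:**
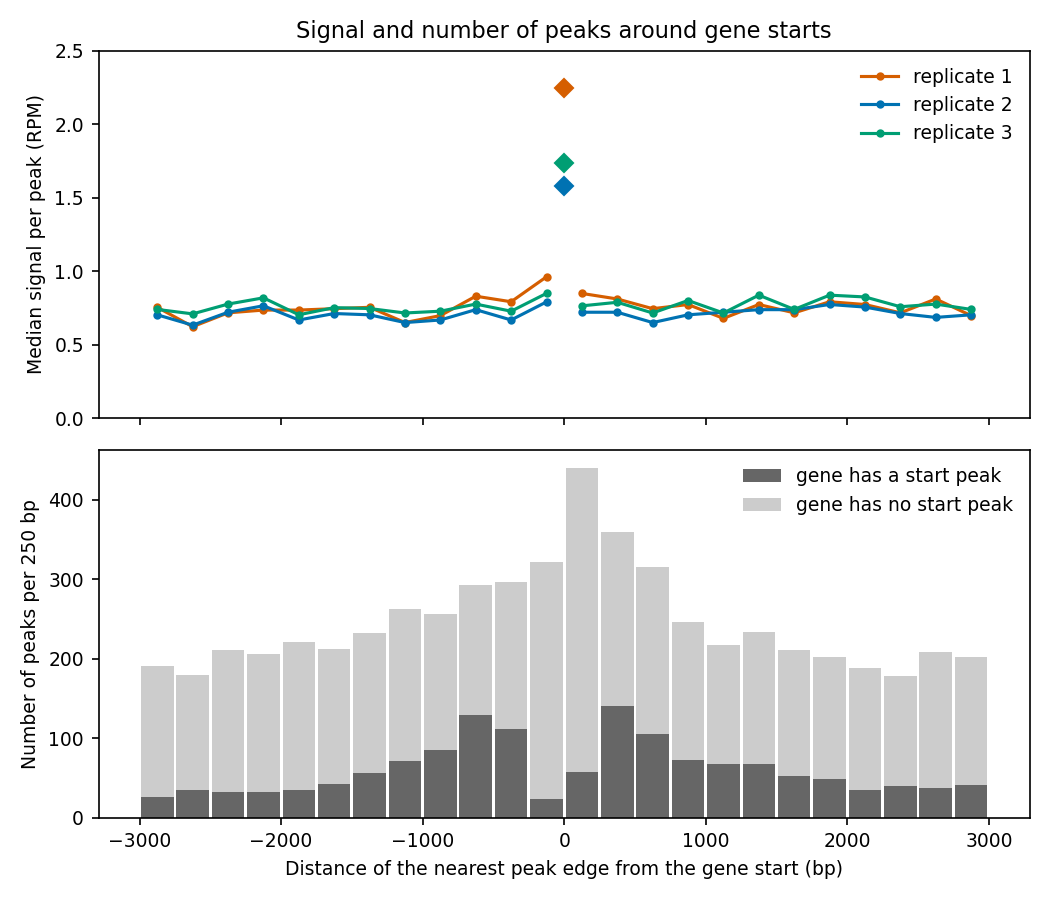
The upper panel plots the median signal per peak (RPM) in each replicate against the distance of the peak from the gene start (bp, 250 bp bins), with diamonds for peaks overlapping the start, and the lower panel plots the number of peaks per bin, dark where the gene has a start peak. The downstream medians stay between 0.650 and 0.849 RPM while the count falls from 440 to 202 across the downstream window, and only 58 of the 440 peaks nearest the start belong to genes with a start peak.

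The gene of a nearby downstream peak rarely had a start peak. At 1 to 200 bp, 33 of 362 downstream peaks (9.12%, 6.36 to 12.6) had a start peak in the same gene. The share was 38.0% in the next band (up to 500 bp), then 31.9% (up to 1000 bp), 27.4% (up to 2000 bp) and 19.7% (up to 3000 bp). By construction no separate peak can lie on bases that a start peak covers, and start peaks had a median width of 639 bp. Between a start peak and a downstream peak of the same gene the median gap was 700.5 bp, with quartiles of 215.5 and 1492 bp and a smallest gap of 1 bp. Whether the closest of these pairs are parts of a single accessible region was not tested.

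Among listed genes, those with and without a start peak had a downstream peak at similar shares. A downstream peak was present in 652 of 3126 genes with a start peak (20.9%, 19.4 to 22.3) and in 1898 of 8876 genes without one (21.4%, 20.5 to 22.3), and the intervals overlap. Upstream flank peaks were present in 18.7% of genes with a start peak and 20.6% of those without. Genes with a downstream peak had an upstream flank peak in 19.3% of cases (17.7 to 20.8), and other genes in 20.4% (19.6 to 21.2). A gene was listed only if it was the nearest gene to at least 1 peak, so these shares describe the merged list and not the whole gene set. Genes without a start peak were listed only through some other peak, which raises their shares of downstream and flank peaks. The same holds for flank peaks of genes without a downstream peak. These shares therefore cannot show whether the peaks occur together in genes. They also refer to peaks that may have been called at other time points.

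Downstream peaks had higher medians where the gene also had a start peak. The 768 peaks of such genes had medians of 0.877, 0.756 and 0.825 RPM (0.819 ± 0.061), and the 2234 others had 0.736, 0.703 and 0.752 RPM (0.730 ± 0.025). The log2 difference was 0.23, 0.10 and 0.12, positive in 3 of 3 replicates, with a mean of 0.15 ± 0.07 (exact permutation test, p = 0.25, adjusted p = 0.333). It was largest in replicate 1, and without that replicate the mean was 0.11. Scaled per kb of peak width, these peaks had 2.67 ± 0.217 RPM and the others 2.26 ± 0.080 RPM, a log2 difference of 0.22 ± 0.08. Limited to peaks above background in all 3 replicates, the difference was 0.08.

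The same contrast was smaller in the neighbouring windows. Upstream flank peaks of genes with a start peak differed from the others by 0.02, -0.10 and -0.04 on the log2 scale (mean -0.04 ± 0.06, exact permutation test, p = 0.5, n = 3), a direction that turned to 0.06 per kb of width. Early gene body peaks differed by 0.14, 0.07 and 0.09 (mean 0.10 ± 0.04, exact permutation test, p = 0.25, n = 3). The start peak difference at downstream peaks exceeded that at upstream flank peaks by 0.22, 0.19 and 0.17 (mean 0.19 ± 0.03, exact permutation test, p = 0.25, adjusted p = 0.333). It exceeded that at early gene body peaks by 0.09, 0.03 and 0.04 (mean 0.05 ± 0.04, exact permutation test, p = 0.25, adjusted p = 0.333). Among peaks above background in all 3 replicates the latter was 0.03 ± 0.05, with a sign that differed between replicates. These tests of the difference itself were added after the data had been seen.

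The signal of a downstream peak also followed how strong the start peak was. The 768 downstream peaks were split into tertiles of 256 by the mean signal of their start peak, with limits at 1.33 and 2.21 RPM. Their own medians were 0.697 ± 0.043 RPM in the lowest tertile, 0.769 ± 0.046 in the middle one and 1.03 ± 0.107 in the highest (SD, n = 3). The highest tertile lay above the lowest by 0.60, 0.49 and 0.49 on the log2 scale, a mean of 0.52 ± 0.07 or 1.44-fold (exact permutation test, p = 0.25, adjusted p = 0.333). Across the 652 genes the Spearman correlation between the start peak and the strongest downstream peak was 0.317, and it was 0.254 across the 585 genes with a start peak and an upstream flank peak. Both signals of a gene come from the same libraries. Per kb of width the difference between the outer tertiles was 0.49 ± 0.03.

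Within a gene the start peak was usually the stronger of the pair. The strongest downstream peak had a median of 0.507 times the signal of the start peak. The median log2 difference over 652 genes was -1.09, -0.91 and -0.82 in replicates 1, 2 and 3, with a mean of -0.94 ± 0.14 (exact permutation test, p = 0.25, adjusted p = 0.333). Per kb of peak width it was -0.22 ± 0.14, so much of this gap too went with width. With only peaks of 200 to 500 bp width kept, which left 234 genes, it was -0.39 ± 0.09, so part of the gap remained. In 466 of the 652 genes (71.5%) the start peak was higher in all 3 replicates, in 73 genes (11.2%) the downstream peak was, and in 113 the replicates differed in direction. Per kb of width these counts became 252 and 69, with the replicates of the remaining genes differing in direction. For upstream flank peaks the start peak was higher in 75.2% of 585 genes and the flank peak in 8.72%.

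**Figure D2:**
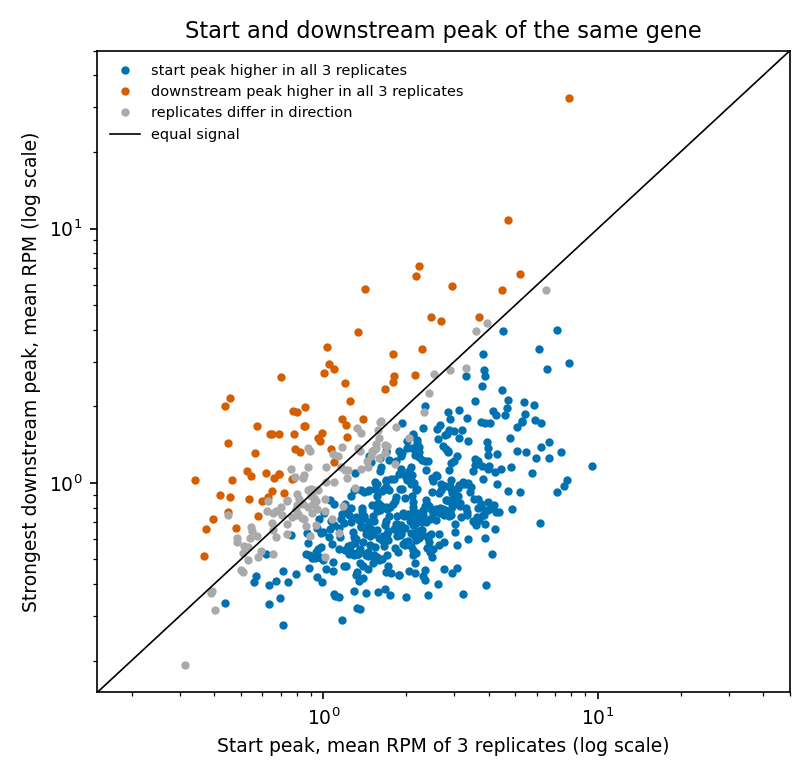
Each point is 1 of 652 genes with both peaks, placed by the mean signal over 3 replicates of its start peak (horizontal, RPM, log scale) and of its strongest downstream peak (vertical, RPM, log scale), and coloured by which was higher in all 3 replicates. In 466 genes the start peak was higher and in 73 the downstream peak was, the latter mostly among genes with a start peak of low signal.

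The 73 genes with the higher downstream peak had narrow and weak start peaks. Their median start peak was 283 bp wide with 0.821 RPM, beside 581.5 bp and 1.70 RPM over all 652 pairs, and their median downstream peak was 553 bp wide at a distance of 930 bp. In all 73 both peaks were above background in all 3 replicates. Per kb of peak width, 24 of the 73 still had the higher value downstream in all 3 replicates. These widths and levels describe genes that were picked by the same signals.

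Among the 5 genes with the largest such difference, evm.TU.ctg2550.1 stood out by its level. Its downstream peak, on contig ctg2550 from 4452 to 6521 of the ASM3288406v1 assembly of *Artemia franciscana*, had 30.2, 33.3 and 34.5 RPM. Its start peak had 7.49, 8.28 and 7.70 RPM, and the lowest downstream value was above the highest start value. For evm.TU.ctg793.5, annotated by the study's gene ontology with starch and polysaccharide binding, the downstream peak had 7.79, 4.31 and 5.22 RPM and the start peak 1.60, 1.27 and 1.38 RPM. This peak lay 746 bp past the start and inside the gene. For evm.TU.ctg79.37, annotated with DNA binding and regulation of transcription, the downstream peak at 873 bp had 2.96, 2.32 and 2.56 RPM and the start peak 0.754, 0.527 and 0.825 RPM. In both genes the internal peak drew more reads than the start peak in every replicate, over widths of 673 and 676 bp against 200 and 231 bp.

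The 2 other genes of this set had short models. The gene evm.TU.ctg144.11, of 537 bp, had 2.72, 1.81 and 1.93 RPM at its downstream peak and 0.490, 0.369 and 0.509 RPM at its start peak. The gene evm.TU.ctg15.51, of 1161 bp, had 2.13, 1.65 and 2.26 RPM and 0.321, 0.545 and 0.449 RPM. In both, the downstream peak lay past the end of the gene model.

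At the other extreme, downstream peaks of 200 to 266 bp sat behind start peaks of about 1 kb. The gene evm.TU.ctg812.1, annotated as an ion channel, which would pass ions across a membrane, had 12.1, 7.49 and 9.05 RPM at its start peak and 1.43, 1.09 and 0.983 RPM at its downstream peak, 1252 bp past the gene start. The gene evm.TU.ctg997.1, annotated with steroid biosynthesis, had 9.75, 6.31 and 6.51 RPM at its start and 1.26, 0.861 and 0.801 RPM downstream. Replicate 1 was the highest at both peaks of both genes. The lowest log2 difference was -3.07 ± 0.36, in evm.TU.ctg148.15, with 4.90, 3.06 and 3.77 RPM at the start and 0.377, 0.387 and 0.425 RPM downstream. The remaining 2, evm.TU.ctg175.46 and evm.TU.ctg378.1, had differences of -3.02 ± 0.10 and -2.91 ± 0.56.

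**Figure D3:**
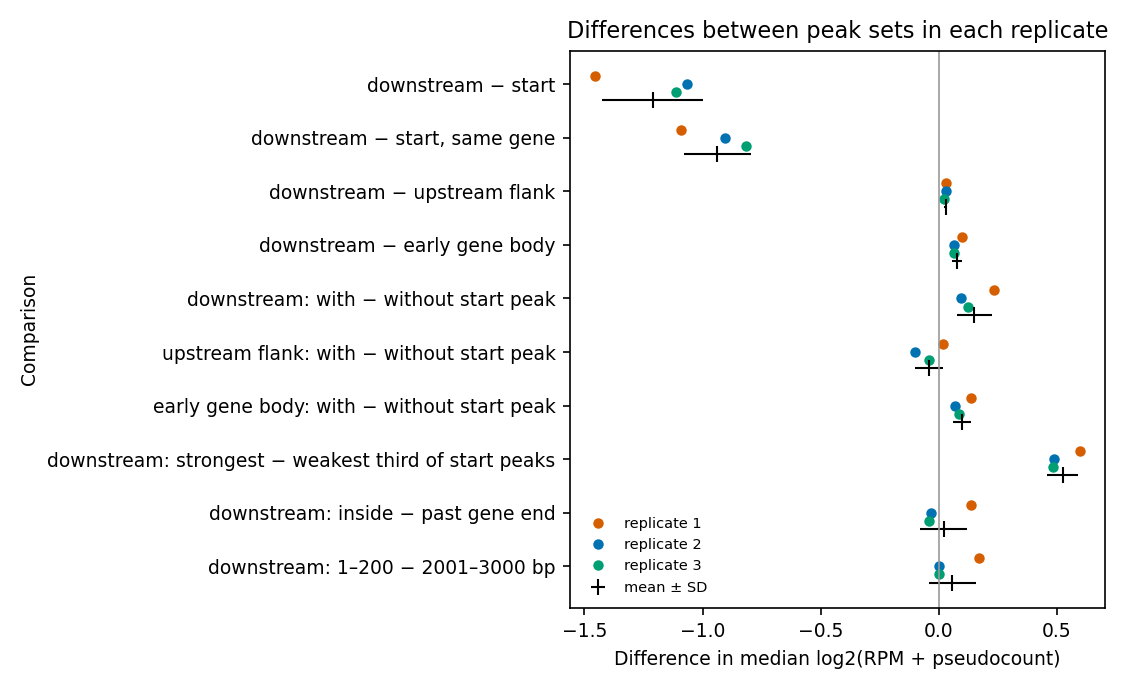
Points are the differences in median log2(RPM + pseudocount) between peak sets in each replicate, with the mean and SD over 3 replicates in black, for each comparison named on the vertical axis. The differences from start peaks lie far below 0 in all 3 replicates, at -1.21 overall and -0.94 within a gene, while those from the upstream flank (0.03) and the early gene body (0.08) lie close to 0.

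Of the 10 strongest downstream peaks, 6 lay more than 2000 bp past the start, as did 777 of all 3002, and 2 had a start peak in the same gene, a share close to the 25.6% of all downstream peaks. The strongest, assigned to evm.TU.ctg1159.11 and lying 2708 bp past its start, had 40.3, 28.8 and 32.0 RPM (33.7 ± 5.96, SD, n = 3) over 1679 bp. The peak of evm.TU.ctg2550.1 at 2848 bp came next with 32.7 ± 2.21 RPM. The peak of evm.TU.ctg6076.2.1, at 2653 bp, had 28.4, 29.5 and 28.7 RPM and was the widest of all downstream peaks at 2713 bp, with 44 summits listed.

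High signal came both from broad regions and from compact sites. The peak of evm.TU.ctg80.12 reached 20.0, 20.6 and 19.8 RPM within 418 bp, or 48.2 RPM per kb, beside 10.6 RPM per kb in the broad peak of evm.TU.ctg6076.2.1. The peak of evm.TU.ctg2346.1 had 10.5, 8.54 and 8.47 RPM within 298 bp, and that of evm.TU.ctg496.7 had 12.1, 12.8 and 13.5 RPM within 461 bp at 648 bp past the start. The SD over replicates was 0.420 RPM at evm.TU.ctg80.12 and 3.07 RPM at evm.TU.ctg928.14, which had 13.7, 7.66 and 9.66 RPM. The peak of evm.TU.ctg96.22 had 13.6 ± 2.34 RPM, again highest in replicate 1. The peaks of evm.TU.ctg187.18 (10.8 ± 0.440 RPM) and evm.TU.ctg715.19 (10.4 ± 0.486 RPM) completed the 10, and evm.TU.ctg187.18 had a start peak of 4.69 RPM. The annotation used here gives no function for these genes.

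**Figure D4:**
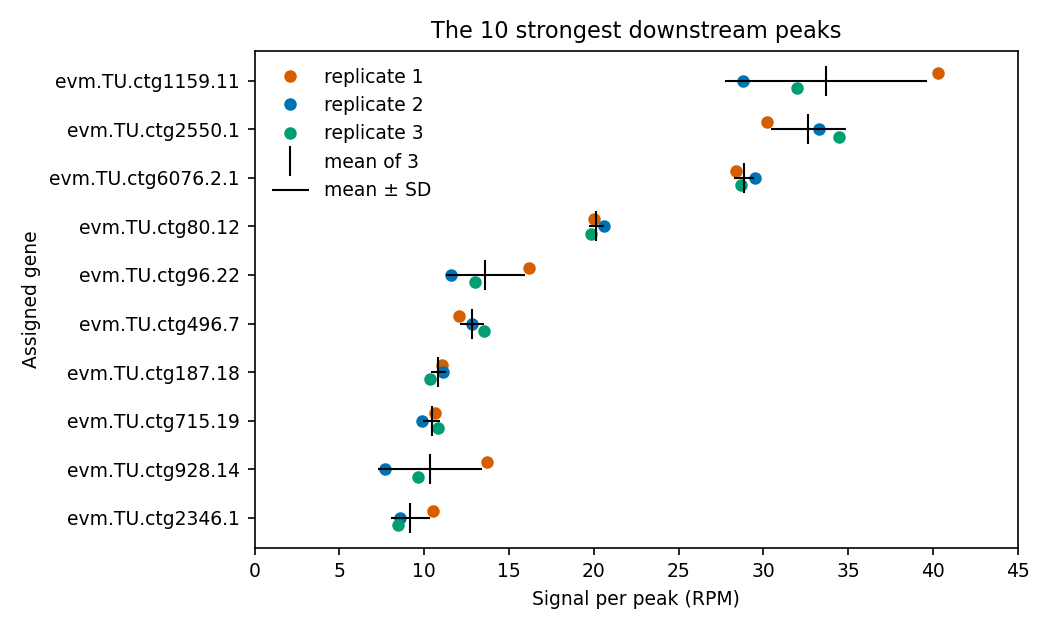
Signal per peak (RPM) of the 10 strongest downstream peaks, with 1 point per replicate and the mean and SD over 3 replicates in black, by assigned gene. The top 3 lie between 28.4 and 40.3 RPM, and replicate 1 is the highest at evm.TU.ctg1159.11, evm.TU.ctg96.22, evm.TU.ctg928.14 and evm.TU.ctg2346.1.

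A few genes carried a row of downstream peaks. Most genes had 1 (2137 genes), while 378 had 2, 31 had 3 and 4 had 4. The median signal was 0.727 RPM in genes with 1 downstream peak, 0.854 RPM with 2 and 0.822 RPM with 3 or more. The short gene evm.TU.ctg2908.1, of 3181 bp, had 4 downstream peaks of 3.84, 2.76, 4.66 and 1.74 RPM at 102, 793, 1382 and 2342 bp, so that sites spread over most of its length. In evm.TU.ctg715.1, 1 of the 31 genes with 3, the downstream peaks of 4.34, 1.30 and 2.76 RPM followed a start peak of 2.67 RPM. The 4 downstream peaks each of evm.TU.ctg22.18, evm.TU.ctg564.11 and evm.TU.ctg1656.15 were weaker, between 0.527 and 1.32 RPM. Those of evm.TU.ctg1656.15 at 1614, 1835 and 2882 bp lay past the end of its model of 699 bp. Those of evm.TU.ctg22.18 also overlapped another listed gene. The second widest downstream peak, of 2394 bp, began 159 bp past the start of evm.TU.ctg118.40 and had 7.85, 6.75 and 8.09 RPM.

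Signal differed little between downstream peaks inside the gene model and past its end. Of the downstream peaks, 2778 (92.5%) overlapped the assigned gene, and 224 (7.46%) lay past its end because the gene was shorter than the distance. Medians were 0.753 ± 0.028 RPM inside and 0.742 ± 0.045 RPM past the end. The log2 difference was 0.14, -0.03 and -0.04 (mean 0.02 ± 0.10, exact permutation test, p = 1, n = 3), and it was -0.04 without replicate 1. Another listed gene was overlapped by 70 downstream peaks (2.33%), so that they have a second possible gene. Genes on the plus strand held 1476 downstream peaks (49.2%, 47.4 to 51.0), with a median of 0.753 RPM beside 0.757 RPM on the minus strand.

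Some genes named in the study's account of signalling at EDT had downstream peaks. Of 21 such genes, all of them listed, 4 had one, a count too small to read against the 21.2% of all listed genes. The study chose the genes on these samples. The gene evm.TU.ctg756.7, named Loco, a regulator of G protein signalling in *Drosophila*, had 1.26, 0.774 and 1.42 RPM at 2624 bp, after a start peak of 1.45 RPM. The RYamide receptor gene evm.TU.ctg441.12, which encodes a receptor for a neuropeptide, had 0.660, 0.861 and 0.958 RPM at 920 bp and no start peak. The candidate G protein-coupled receptor genes evm.TU.ctg288.3 and evm.TU.ctg308.1 had 1.09, 0.914 and 1.23 RPM at 502 bp and 0.396, 0.580 and 0.485 RPM at 933 bp. Only evm.TU.ctg288.3 of these 2 had a start peak, at 0.851 RPM, below the mean of its downstream peak. None of the 4 exceeded 1.42 RPM in any replicate.

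Downstream peaks were found in genes of all 10 functional classes examined. As 21.2% of all listed genes had one, this sets no class apart. The classes come from the study's own gene ontology annotation of genes that it chose on these samples, so they are not independent evidence, and their counts are a description. Of 5 downstream peaks in carbohydrate metabolism genes, 4 had a start peak in the gene, a count too small to read against the 25.6% over all downstream peaks. Their median was 1.01 RPM at the downstream peaks. Trehalose is the sugar that protects dry *Artemia* cysts, and the trehalose biosynthesis gene evm.TU.ctg260.24 had 1.51, 1.04 and 1.10 RPM at 558 bp behind a start peak of 5.28, 2.37 and 3.34 RPM. The gene evm.TU.ctg827.8, annotated as a glycerone kinase of glycerol metabolism, had 1.17, 1.11 and 1.32 RPM at 2360 bp behind a start peak of 2.91 RPM. The gene evm.TU.ctg826.3, annotated as a poly(ADP-ribose) glycohydrolase with RNA binding, had 0.868, 0.809 and 1.35 RPM, below its start peak of 3.22 RPM.

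Oxidoreductases, enzymes that move electrons between molecules, had 11 downstream peaks in 10 genes, with a median of 0.871 RPM. Of these peaks 7 had a start peak in the gene, beside 25.6% of all downstream peaks. This count, like those of peptidases and transporters below, is too small to read against that share. The strongest oxidoreductase peak was that of evm.TU.ctg284.40, annotated with oxidation of aldehydes, with 2.49, 1.76 and 1.69 RPM behind a start peak of 4.67 RPM. The heme biosynthesis gene evm.TU.ctg115.40 had 1.41, 0.914 and 1.08 RPM and the gene evm.TU.ctg342.23, annotated as the homogentisate dioxygenase of phenylalanine breakdown, had 1.40, 1.14 and 0.861 RPM. Neither of the latter had a start peak. Among 8 peptidase peaks, 4 with a start peak, the strongest was that of evm.TU.ctg205.6 with 2.66, 2.46 and 1.84 RPM at 125 bp, followed by evm.TU.ctg135.5, an ATP-dependent peptidase that degrades proteins, with 2.06, 1.78 and 2.22 RPM, and the serine endopeptidase evm.TU.ctg811.10 with 1.27 RPM. The gene evm.TU.ctg205.6 was also annotated as an amino acid transporter, and the metal ion transporter gene evm.TU.ctg75.11 had 1.31 RPM. The 7 transporter peaks ranged from 0.604 to 2.32 RPM, 3 of them with a start peak.

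Protein kinases pass on signals by adding phosphate to other proteins. Their 6 genes had 8 downstream peaks, 0 of them with a start peak in the gene, a count too small to read against the 25.6% of all downstream peaks. The strongest kinase peak, in evm.TU.ctg661.3, began 31 bp past the listed start and had 1.75, 2.25 and 1.81 RPM, while those of evm.TU.ctg71.10 and evm.TU.ctg1180.4 had 1.02 and 0.941 RPM. Among 12 signal transduction peaks in 11 genes, 4 had a start peak and the median was 1.03 RPM. The calcium-binding cell adhesion gene evm.TU.ctg707.3 had 2 of them, with 1.67 and 1.12 RPM. Of 7 GTP-binding peaks, that of evm.TU.ctg396.7 was the highest with 3.28, 2.51 and 2.80 RPM, above evm.TU.ctg189.8, a small GTPase signalling gene with 1.04 RPM, and evm.TU.ctg100.20 with 0.812 RPM.

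Transcription factor genes had 5 downstream peaks with a median of 0.604 RPM. These proteins bind DNA to switch genes on or off. The peaks of evm.TU.ctg180.56 had 2.02, 1.30 and 1.53 RPM at 2249 bp, behind a start peak of 3.19 RPM, and that of evm.TU.ctg345.15 had 1.57, 1.58 and 1.38 RPM at 181 bp with no start peak. The peak of evm.TU.ctg142.8 had 0.604 RPM and its start peak 3.37 RPM. Among 4 RNA-binding peaks, the translation initiation factor gene evm.TU.ctg256.39_evm.TU.ctg256.47 had 0.766 RPM and evm.TU.ctg1085.1, annotated as a helicase of DNA junctions, had 0.845 RPM. The medians of the 10 classes, from 0.604 to 1.39 RPM, rest on 2 to 12 peaks each and were not tested against each other.

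Replicate 1 stood apart from replicates 2 and 3 at start peaks, and only slightly at the peaks on either side of the start. The ratio of replicate 1 to the geometric mean of replicates 2 and 3 had a median log2 value of 0.06 at downstream peaks and 0.07 at upstream flank peaks. It was 0.46 at start peaks and 0.01 over all peaks. At downstream peaks the value was 0.13 against replicate 2 alone and 0.02 against replicate 3 alone. At downstream peaks of genes with a start peak the value was 0.35, 0.26, 0.25, 0.13 and 0.07 from the nearest to the farthest band. At those of genes without one it was 0.13 and 0.08 in the first bands and between -0.01 and 0 beyond. Replicate 1 held the highest RPM in 1228 downstream peaks (40.9%), beside a background of 36.6% of all peaks, 40.4% of upstream flank peaks and 84.8% of start peaks. The share was 50.7% (389 of 768) with a start peak and 37.6% (839 of 2234) without. With 1 library per sample, the sample and its library cannot be told apart as the source of this excess, and it enters every difference above that involves start peaks.

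**Figure D5:**
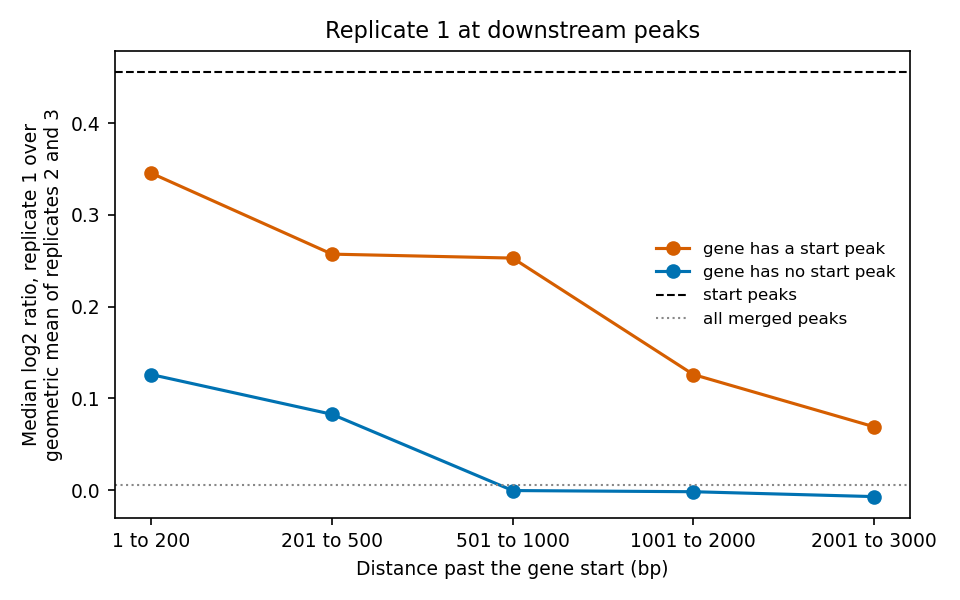
The median log2 ratio of replicate 1 over the geometric mean of replicates 2 and 3 (vertical) is plotted by distance past the gene start (bp, 5 bands), separately for genes with and without a start peak, with lines for start peaks and for all merged peaks. The values fall from 0.35 to 0.07 in genes with a start peak and reach the level of all peaks beyond 500 bp in genes without one.

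The replicates measured the same downstream peaks with moderate precision. A median downstream peak held 40, 40 and 62 reads in replicates 1, 2 and 3, and all 3002 held at least 1 read in each. The library totals, recovered from the counts and RPM values, were 53022270, 56882821 and 82440230 reads. Downstream peaks took 2.79, 2.74 and 2.76% of the reads in peaks. Spearman correlations across the 3002 peaks were 0.815 for replicates 1 and 2, 0.830 for 1 and 3, and 0.843 for 2 and 3. The biological coefficient of variation estimated by edgeR was 0.183 at downstream peaks, 0.209 at start peaks, 0.181 at upstream flank peaks and 0.191 over all peaks. Without replicate 1 it was 0.146 at downstream peaks and 0.0918 at start peaks, a change of over 1.5 times only at the latter. The sets lay further apart under other settings of all 3 replicates. Halved counts gave 0.122 at downstream, 0.189 at start and 0.123 at upstream flank peaks, and 0.132 over all peaks. A minimum of 100 reads per replicate gave 0.135, 0.196, 0.135 and 0.147 in the same order. How far read depth or the counting of both mates shaped the main values was not tested separately.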

How the data were processed

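ATAC-seq was measured in 3 libraries of the ArR_30min group. After trimming, the authors used BWA and the genome of a related species, *Artemia franciscana* (ASM3288406v1), which can lower counts where the species diverge. They kept a mapping quality of at least 13, found peaks with MACS2 and took the nearest gene from ChIPseeker. The submitters' processing notes also name BWA and MACS2. The authors deposited raw read counts per merged peak and library. They also deposited RPM values, which were proportional to the count plus 1 within each library (deviation up to 0.000498%). The library totals used here were recovered from these counts and RPM values and were not given separately. The study used peaks merged over all its samples in a correlation step, and whether the deposited list is that one is not given in the sources used here, so it may hold peaks of other time points. Both mates of a pair were probably counted. There were 0 per-sample columns of other samples.

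Distances were recomputed from the listed coordinates with 0 mismatches. Medians were compared per replicate on log2(RPM + 0.0691), the pseudocount being 0.1 of the median RPM, with two-sided exact sign-flip permutation tests. Background was the read density outside peaks on the listed contigs (30.2, 32.8 and 47.2 reads per kb). Dispersions were estimated in edgeR 4.0.16 (R 4.3.3) with TMM factors and an intercept, and other values in Python 3.11.15. The procedures were tested on simulated data. The members, gene lists and replicate 1 description were chosen with earlier results of these data known. Named genes are the 10 strongest downstream peaks, the widest 3, the 5 genes with most, the 5 largest and 5 smallest within-gene differences of 1 sign in all replicates with both peaks above background, the 3 strongest of each of 10 ontology classes, and genes the study's text names. Of the 5 genes with most, evm.TU.ctg715.1 was 1 of 31 genes tied at 3 downstream peaks. Alternatives were the pseudocount, width scaling, width and background limits, TMM scaling and leaving out replicates. No sequence was analysed here.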

Additional observations from a re-analysis of the deposited data

How the results depend on the processing

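All 9 alternatives kept the direction of the mean differences between downstream peaks and start peaks, upstream flank peaks and early gene body peaks, of the within-gene difference, and of that between genes with and without a start peak, as well as those of the early gene body, of the tertiles and of both contrasts between windows. Not all 9 could have turned a direction. The pseudocount and TMM scaling shift both sets of a library alike and could hardly turn a difference between 2 sets. Leaving out a replicate cannot turn a mean whose 3 replicates share a sign. Width scaling and the width and background limits could have done so. With 3 replicates no comparison could pass 0.05, so the kept signs describe directions only. Among peaks above background the upstream flank difference was 0 in 2 of 3 replicates. There the replicates differed in sign for the start peak contrast between downstream and early gene body peaks (0.027). Without replicate 1, 2 or 3 in turn (2 replicates allow no p below 0.5), the difference inside against past the gene end ranged from -0.037 to 0.052 and reversed without replicate 1. The nearest against the farthest band ranged from 0 to 0.086, being 0 without replicate 1, and it was -0.039 per kb of width. Upstream flank peaks of genes with and without a start peak, a comparison added after seeing the data, reversed to 0.056 per kb of width and 0.074 at widths of 200 to 500 bp. The replicate 1 excess at downstream peaks was 0.16 with at least 100 reads in each replicate, and 0.02 to 0.13 without replicate 2 or 3. The share of downstream peaks above background was 63.7% at 2 times the density (54.2% of all peaks) and 87.7% with counts halved for pairs of mates (81.7% of all peaks). At a Poisson limit of 1 in 100000, chosen after seeing the data, it was 68.9% (59.7% of all peaks). It ranged from 94.5 to 96.9% with a replicate left out (91.1 to 94.9% of all peaks). At downstream peaks the coefficient of variation was 0.135 with at least 100 reads and 0.122 with halved counts. It was 0.146 to 0.202 with a replicate left out. At start peaks the same settings gave 0.196, 0.189 and 0.0918 to 0.253. The cause was not tested in any of these. No paired analysis was possible because the series holds 1 group, so no samples pair across groups. At a median of 40 reads in replicates 1 and 2, counting error limits the precision of single peaks.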
